A study of Mus musculus with 35 samples.

Results

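Histone H3 acetylated on lysine 27 (H3K27Ac) marks promoters and enhancers that are in use, and H3 trimethylated on lysine 4 (H3K4me3) marks promoters. H3 trimethylated on lysine 27 (H3K27me3) is laid down by Polycomb complexes at silenced developmental genes, and the same residue cannot carry it and acetylation at once. Brg1 is the ATPase of the SWI/SNF nucleosome remodelling complex. The mouse retina at birth (P0) still holds dividing progenitor cells and immature rod photoreceptors, and by P14 and P21 it consists of differentiated neurons and glia.

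The regions described here are H3K27Ac peaks of the newborn retina that were missing from every wild-type list of P14 and P21. They were chosen from the H3K27Ac lists themselves. A P0 peak of replicate 2 was taken if it overlapped a P0 peak of replicate 1 by at least 1 bp and overlapped no peak in any of the 4 wild-type P14 and P21 lists. Of 29304 peaks in P0 replicate 2, 14741 were also in replicate 1, and 1278 of these (8.67%) met the rule. They are called lost peaks below, which means absent from the later lists and not that acetylation was shown to be zero. A further 6741 P0 peaks were found in 1 to 3 of the later libraries and are called partly kept, and 6722 were found in all 4 and are called kept. The remaining 14563 peaks were in P0 replicate 2 alone and were not used.

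The study followed histone marks by ChIP-Seq in whole retinae. Wild-type retinae gave 2 libraries of every mark at each of 3 stages, P0, P14 and P21. At P12 there were libraries of wild-type retinae (1 library each for H3K27Ac and H3K4me3, 2 for H3K27me3) and of Brg1-deficient retinae (2 libraries for H3K27Ac, 1 each for H3K4me3 and H3K27me3). The Brg1-deficient mice, labelled BRG1 -/-, carried floxed Brg1 alleles and Chx10-Cre, which is expressed in retinal progenitor cells in a mosaic pattern, so their retinae still held cells with Brg1. Brg1 binding was measured with an antibody to FLAG at P0 in 1 library from Brg1-FLAG knock-in mice, whose own Brg1 gene carries the tag. Strain, and whether animals were pooled, are not given in the sources used here, and nothing states that replicates came from separate litters, so any p-value covers the spread between libraries only. Positions are on the mm9 build and count from 1. No mm9 annotation or sequence was used, so regions are named by position, no gene or sequence is given, and the tissue label was not checked against marker genes. In whole retinae, fewer cells carrying a mark and less mark per cell cannot be told apart.

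The later H3K27Ac lists were very unequal in length, and this set how many peaks were called lost. They held 17433 and 50005 peaks at P14 and 18718 and 45833 at P21. P14 replicate 2 alone kept 812 peaks off the lost list and P21 replicate 2 alone kept 104 off it, whereas the first replicate of either stage removed none that another library did not. Without P14 replicate 2 the number of lost peaks was 2090, and with every later list cut to its strongest 17433 peaks it was 2805. The number of reads behind each list is unknown.

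The height of a peak is given as fold enrichment over background at its summit. Lost peaks had a median height of 5.69 in P0 replicate 2, with a range of 2.0 to 18.2, and a median of 4.83 in replicate 1. Partly kept peaks had a median of 7.19 and kept peaks of 10.8 in replicate 2. Lost peaks were therefore lower as a group, but their range lay inside that of the partly kept peaks. Their median length was 702.5 bp (220 to 5177 bp), against 1041 bp for kept peaks, and together they covered 1.12 Mb. These heights come from the lists that chose the peaks and are a description only.

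Lost peaks fell into a smaller group with the promoter mark and a larger one without it. An H3K4me3 peak of both P0 libraries overlapped 394 of the 1278 lost peaks (30.8%), an H3K4me3 peak of 1 library overlapped 68, and 816 had none. Among all 14741 P0 H3K27Ac peaks the proportions were the reverse, since 12983 overlapped H3K4me3 in both libraries and 1537 had none. Consequently 3.04% of the H3K4me3-marked P0 peaks were lost (95% Wilson interval 2.75 to 3.34%) and 53.1% of the unmarked ones (50.6 to 55.6%). The intervals cover counting error only, because neighbouring peaks are not independent.

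The 2 groups were also compared at like heights. All 14741 peaks were divided at common limits of 5.83, 8.35 and 11.9 in P0 replicate 2. From the lowest to the highest of the 4 groups 7.2%, 3.79%, 1.85% and 0.383% of H3K4me3-marked peaks were lost. Of the unmarked peaks 52.5%, 54.1%, 54.9% and 40.7% were lost, with overlapping intervals, and the highest group held only 27 of them. In every height group the unmarked share was above the marked one. Unmarked lost, partly kept and kept peaks had median heights of 5.61, 5.37 and 5.43 at P0. These shares use the lists that chose the peaks and are a description.

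**Figure D1:**
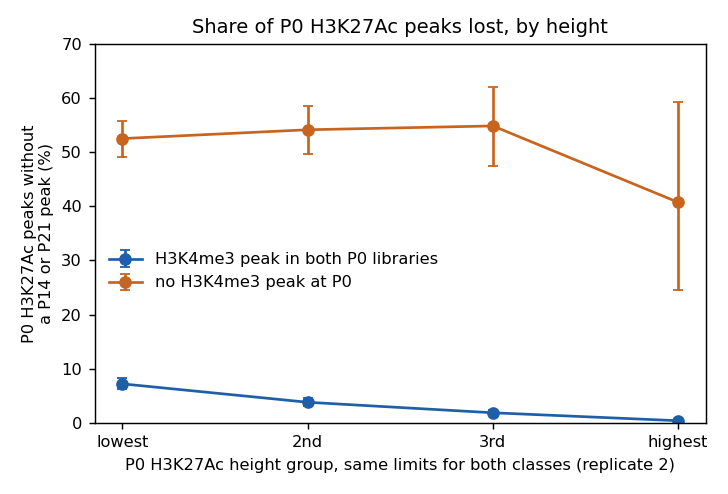
Share of P0 H3K27Ac peaks (%) without a P14 or P21 peak, in 4 groups of P0 height with limits shared by both classes, for peaks with H3K4me3 in both P0 libraries (blue) and peaks with none (orange). Points are shares and bars are 95% Wilson intervals. The unmarked peaks lie between 40.7% and 54.9%, and the marked peaks go from 7.2% to 0.383%.

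The 2 lost peaks with H3K4me3 that were highest in P0 replicate 2 kept their promoter mark. The peak chr17:56441822-56444504 was the highest of all in that replicate, at 12.6 and 18.2 in P0 replicates 1 and 2. Its H3K4me3 height was 45.5 and 71.1 at P0, 39.7 and 31.7 at P14 and 46.5 and 18.2 at P21. The peak chr3:27052077-27052783 (H3K27Ac 11.6 and 18.1) had H3K4me3 heights of 32.0 and 92.2 at P0, 40.9 and 27.9 at P14 and 81.6 and 29.6 at P21. At both regions the H3K4me3 heights, given here as deposited, overlapped between P0 and the later stages. The second region lay only 95 bp from a later H3K27Ac peak.

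Others of the 5 marked peaks highest in P0 replicate 2 had lower H3K4me3 later. At chr11:68859121-68859863 (H3K27Ac 9.09 and 16.7) H3K4me3 was 54.1 and 54.4 at P0, 26 and 18.4 at P14 and 26 and 11.5 at P21. At chr9:70268850-70269441 (H3K27Ac 9.29 and 15.4) it was 28.3 and 26.9 at P0, 20.8 and 11.4 at P14 and 13.6 and 6.42 at P21. All 4 later values lay below both P0 values at these regions. The peak chr4:82349623-82351895 (H3K27Ac 5.57 and 15.8) had weak H3K4me3 from the start, 10.9 and 11.8 at P0, no peak at P14 and 4.27 and 4.26 at P21, and it was covered by H3K27me3 in both P14 libraries and 1 of 2 P21 libraries but in neither at P0.

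Among the 816 lost peaks without H3K4me3, 808 had no H3K4me3 peak in any of the 8 libraries of P0 to P21, wild-type or Brg1-deficient (99.0%, against 89.1% of all unmarked P0 peaks and 90.2% of the partly kept ones). The highest in P0 replicate 2 was chr7:31860940-31863909, at 6.14 and 15.1 in P0 replicates 1 and 2. It was followed in replicate 2 by chr16:90077564-90079454 (8.25 and 13.5), chr7:127301507-127302293 (3.82 and 13.5), chr9:114669164-114670215 (4.37 and 13.1) and chr6:112961399-112964745 (6.59 and 13.1). All 5 had a Brg1 peak at P0, with heights from 5.80 to 8.75. The first stood apart in H3K27me3, which covered it in all 4 later libraries and all 3 P12 libraries and in neither P0 library, whereas the last 3 had no H3K27me3 island in any library.

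H3K27me3 was not used to choose the peaks, and it overlapped more lost peaks at the later stages. H3K27me3 islands overlapped 9.23% and 11.1% of lost peaks in the P0 libraries, 21.1% and 29.3% at P14 and 23.2% and 26.2% at P21. Every later library was above both P0 libraries, with a mean of 25% ± 3.55 (SD, n = 4) against 10.2% ± 1.33 (n = 2). The difference of 14.8 percentage points had an exact two-sided permutation p of 0.1333. That is the smallest p this test, as computed here, can give with 2 against 4 libraries. The Benjamini-Hochberg value was 0.16 over the 12 comparisons of this kind. Kept peaks went the other way, from 7.86% ± 1.57 to 2.68% ± 0.553 (exact permutation p = 0.1333). The gap between lost and kept peaks was 2.31 percentage points at P0 and 22.3 points later (difference 20.0, exact permutation p = 0.1333). This gap pools peaks with and without H3K4me3, which lost and kept peaks held in unlike proportions. Among peaks with H3K4me3 in both P0 libraries, lost peaks were already higher at P0. There the shares were 27.4% and 33.0% of lost against 6.97% and 9.28% of kept peaks.

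The later H3K27me3 lists also covered more of the genome, 126.6 and 213.3 Mb at P14 and 142.2 and 151.7 Mb at P21 against 96.7 and 114.1 Mb at P0. With only the 12188 islands of the highest deposited value taken from each library, the shares were 9.23% and 9.94% at P0, 20.0% and 22.6% at P14 and 21% and 22.4% at P21, and the difference was 11.9 points. Partly kept peaks, with 18.0% and 23.0% at P0, 22.5% and 30.5% at P14 and 25.2% and 28.3% at P21, did not separate the stages.

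Both groups of lost peaks had more H3K27me3 later, from different starting points. Of the lost peaks with H3K4me3, 27.4% and 33.0% were overlapped at P0, 47.2% and 53.6% at P14 and 50.5% and 55.3% at P21. Of those without H3K4me3, 1.1% were overlapped in each P0 library, 8.82% and 17.6% at P14 and 10.4% and 12.3% at P21. Each gave an exact permutation p of 0.1333, and unmarked kept peaks stayed at 0.294% on average at both ages. Unmarked partly kept peaks were also higher later, at 5.49% ± 3.0 against 0.454% ± 0.128 (exact permutation p = 0.1333). Co-occurrence of H3K4me3, H3K27me3 and H3K27Ac at P0 in 1 region was measured in whole tissue and does not show them in the same cells.

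**Figure D2:**
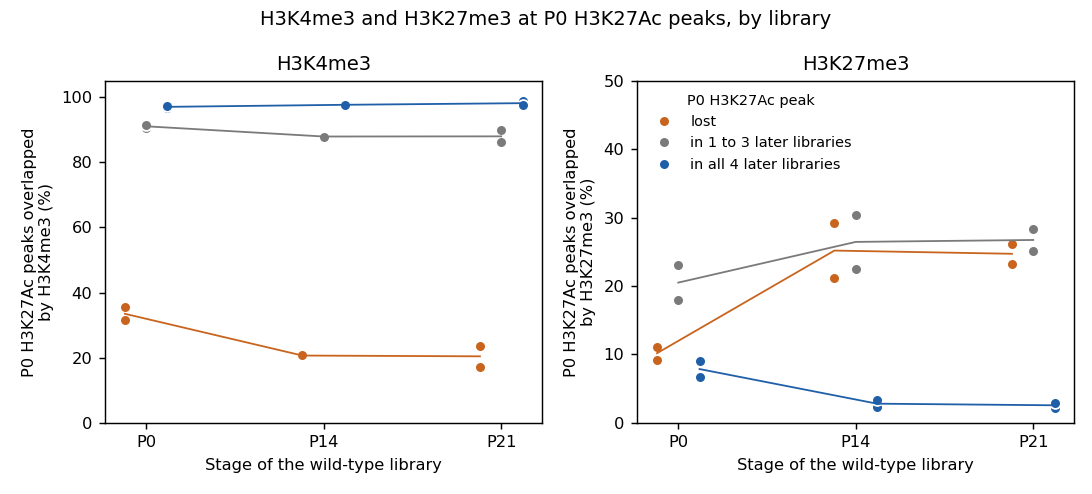
Share of P0 H3K27Ac peaks (%) overlapped by H3K4me3 (left) and H3K27me3 (right) in each wild-type library of P0, P14 and P21, for lost (orange), partly kept (grey) and kept (blue) peaks. Points are libraries and lines join stage means. H3K27me3 on lost peaks lies at 9.23% and 11.1% at P0 and between 21.1% and 29.3% later, while on kept peaks it lies between 2.20% and 3.35% later.

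At 118 lost peaks (9.23%) H3K27me3 was in neither P0 library and in all 4 later ones. The same pattern was found at 3.35% of all P0 H3K27Ac peaks in both replicates, at 340 partly kept peaks (5.04%) and at 36 kept peaks (0.536%). Of the 118, 56 had H3K4me3 in both P0 libraries and 55 had none. At P12, where another H3K27me3 antibody was used, 110 of the 118 had an island in both wild-type libraries and 110 had one in the Brg1-deficient library. Of the 494 P0 peaks with this pattern, lost or not, 472 had each. The opposite pattern, H3K27me3 in both P0 libraries and in no later one, was found at 4 lost peaks (0.313%), against 2.42% of all P0 peaks. A further 104 lost peaks carried H3K27me3 in both P0 and all 4 later libraries, and 101 of these had H3K4me3 in both P0 libraries. They were 8.14% of lost peaks, against 6.59% of all P0 peaks and 12.1% of partly kept ones. Among peaks with H3K4me3 in both P0 libraries, this pattern was found at 25.6% of lost, 13.4% of partly kept and 0.785% of kept peaks. It was found at 7.44% of all P0 peaks with H3K4me3 in both libraries.

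No later H3K27me3 island overlapped 866 lost peaks (67.8%), against 79.9% of all P0 peaks and 66.4% of partly kept ones. These pooled shares mix the H3K4me3 classes. With H3K4me3 in both P0 libraries, the share was 40.6% of lost, 64.0% of partly kept and 79.1% of all P0 peaks. Without H3K4me3 it was 80.8% of lost, 89.3% of partly kept and 85.9% of all P0 peaks. Neither H3K27me3 nor H3K4me3 was found in any P14 or P21 library at 753 lost peaks (58.9%), against 9.57% of all P0 peaks. Of the lost peaks without H3K4me3 at P0, 657 of 816 (80.5%) had neither mark later, and of those with it 53 of 394 (13.5%). Over all P0 peaks the shares were 76.4% without and 0.955% with H3K4me3, so the unmarked lost peaks were near the share of their class.

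H3K4me3 peaks overlapped fewer lost peaks at the later stages. The shares were 31.5% and 35.4% at P0, 20.5% and 20.8% at P14 and 23.6% and 17.3% at P21. The P0 and later libraries did not overlap, and the difference of -12.95 percentage points gave an exact two-sided permutation p of 0.1333. Partly kept peaks were also lower later, by 3.11 points, from 91.1% ± 0.682 to 88.0% ± 1.52 (exact permutation p = 0.1333). Kept peaks were at 97.1% ± 0.442 and later at 98.0% ± 0.607. Within the 394 marked lost peaks, 215 (54.6%) had H3K4me3 in all 4 later libraries and 96 (24.4%) in none. Over all marked P0 peaks 96.0% had it in all 4 later libraries and 1.43% in none.

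Where the main fit called a difference, H3K4me3 heights at these regions were lower at P14 and P21 than at P0, except for 1 region at P21. All H3K4me3 peaks of the 6 wild-type libraries were merged into regions, heights were scaled to a common median, and log2(height + 3.28) was compared with limma and Benjamini-Hochberg adjustment at 0.05. Of the 1278 lost peaks, 407 lay in the 374 tested regions, and 811 had no H3K4me3 region in any of the 6 libraries. At P14, 126 of the 374 regions were lower and 0 higher. Over all 21075 regions 12% were lower and 3.79% higher. An unadjusted p under 0.05 in either direction was found at P14 in 200 of the 374 regions. The share of all regions with such a p was not computed. At P21, 172 were lower and 1 higher, with 15.5% lower and 5.05% higher over all regions. On this log2 scale the median difference in the 374 regions was -0.87 at P14 and -1.09 at P21. Over all regions it was -0.08 and -0.13. These counts and medians include regions with peaks at P0 alone, which could only be lower.

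Of the 374 regions, 71 had H3K4me3 peaks at P0 alone and so could only be lower, and all 71 were called at both stages. In the 238 regions where all 6 libraries had a peak, 46 were lower and 0 higher at P14 and 100 were lower and 1 higher at P21. The corresponding shares of all 15065 such regions were 2.77% lower and 1.21% higher at P14, and 8.42% lower and 1.46% higher at P21. The median difference in the 238 regions was -0.58 at P14 and -0.82 at P21, and -0.002 and -0.043 over all 15065. The limma calls depended on scaling and on single libraries. Without scaling limma called 0 regions at either stage, with 168 and 188 lost-peak regions at an unadjusted p under 0.05. The share of all regions at that p was not computed. Without scaling the median over all regions was -0.25 at P14 and -0.16 at P21, and in the lost-peak regions -0.95 and -1.05. Without either P14 library limma called 0 regions at P14, at lost peaks or elsewhere. Without P0 replicate 1 or 2 it called 7 or 6 lost-peak regions at P14 and 39 or 20 at P21. Over all 19243 or 19041 regions it then called 56 or 19 lower and 185 or 199 higher at P14. At P21 these were 438 or 178 lower and 496 or 502 higher. Without P21 replicate 1 or 2 it called 85 or 92 lost-peak regions at P21. Over all 20264 or 20844 regions 1811 or 1601 were then lower and 657 or 643 higher.

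For lower H3K4me3 at P21, 9 regions shared the smallest limma adjusted p of 0.0052, and 8 of them had peaks at P0 alone. The 5 with the largest difference were all of this kind and could only be lower, so they are given as a description. At chr12:3890865-3893079 the H3K4me3 height was 29.1 and 23.2 in the P0 libraries, at chr7:17578878-17580739 it was 16.8 and 25.7, and at chr9:51953746-51958051 it was 16.4 and 26.3. The other 2 regions were chr6:83086768-83088442 (21.3 and 17.5) and chr19:22766937-22769583 (16.0 and 19.3). None had a peak in the 4 later libraries.

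The remaining one of the 9 had an H3K4me3 peak in every library. At chr9:65737675-65739920, named after its values were seen, the height was 42.4 and 35.0 at P0, 4.50 and 5.19 at P14 and 6.06 and 2.62 at P21. All later values lay below both P0 values, with log2 differences of -2.21 ± 0.21 (SE, limma adjusted p = 0.00835) at P14 and -2.45 ± 0.21 (adjusted p = 0.0052) at P21.

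Brg1 bound most lost peaks at P0, about as often as P0 H3K27Ac peaks in general, but less often than kept peaks of the same H3K4me3 class. A Brg1 peak overlapped 1125 of the 1278 lost peaks (88.0%, 95% Wilson interval 86.1 to 89.7%), 83.1% of partly kept and 93.6% of kept peaks, and 88.3% of all 14741. Lost peaks without H3K4me3 were bound in 91.2% (744 of 816) and those with it in 80.7% (318 of 394). For partly kept peaks these shares were 94.9% and 81.9%, and for kept peaks 98.8% and 93.4%. Among P0 peaks without H3K4me3 the share lost was 51.8% where Brg1 bound and 70.6% where it did not, the second resting on 102 peaks. Among those with H3K4me3 it was 2.80% and 4.74%. The median Brg1 height where bound was 6.47 at lost, 5.91 at partly kept and 6.75 at kept peaks. There was 1 Brg1 library, so none of this has a replicate check.

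Distances to the later peaks are a description, because the rule itself left out every overlap, and later peaks include those not seen at P0. The median distance to the nearest P14 or P21 H3K27Ac peak was 13776.5 bp, with quartiles of 2998.5 and 42046 bp, and 288 lost peaks (22.5%) were more than 50000 bp away. Within 1000 bp there were 188 (14.7%), of which 114 were among the 394 with H3K4me3 (28.9%) and 67 among the 816 without (8.21%). Just inside the rule were 65 lost peaks at most 200 bp from a later peak, with a median P0 height of 5.77. Just outside it were 9 peaks that shared at most 50 bp with their only later library, with a median of 3.99. With the 1090 lost peaks farther than 1000 bp away, the share with H3K4me3 in both P0 libraries was 25.7% in place of 30.8%.

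**Figure D3:**
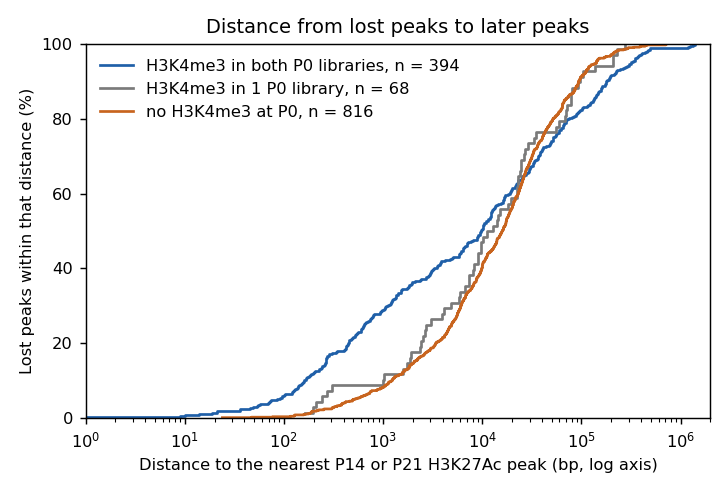
Cumulative share of lost peaks (%) against the distance in bp (log axis) to the nearest P14 or P21 H3K27Ac peak, split by H3K4me3 at P0. The curve of the 394 peaks with H3K4me3 in both libraries (blue) reaches 28.9% at 1000 bp and that of the 816 peaks without it (orange) 8.21%.

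Some lost peaks lay in groups. Taking neighbouring lost peaks within a fixed distance of each other as 1 run, 477 of them (37.3%) lay in 201 runs of at least 2, and 801 were alone. The same share was not computed for other P0 peaks. In 181 of the 201 runs no later H3K27Ac peak lay inside the span. By chromosome, between 4.68% (X, 18 of 385) and 12.9% (chromosome 12, 78 of 606) of the P0 peaks were lost, leaving out chromosome Y with a single P0 peak.

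The longest run held 7 lost peaks at chr2:166475652-166489227. Their H3K27Ac heights ranged from 2.09 to 6.82 in P0 replicate 2 and from 2.73 to 6.80 in replicate 1. All 7 had Brg1 and none had H3K4me3, and no H3K27me3 island or later H3K27Ac peak, P12 included, lay in the 13576 bp span. The runs of 5 at chr7:119272242-119288787 and chr7:140911612-140926519 were alike in having Brg1 at every peak and no H3K4me3 at P0 or H3K27me3 at any stage. In the Brg1-deficient P12 replicate 1 they had an H3K27Ac peak at 1 and 2 of their 5 lost peaks.

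The run of 6 at chr17:25696483-25705586 was the one covered by H3K27me3. Islands covered 0% and 6.44% of its span at P0, 91.2% and 100% at P14 and 100% and 86.8% at P21, and at P12 82.4% in both wild-type libraries and 78.0% in the Brg1-deficient one. H3K27Ac heights of its 6 lost peaks were between 2.85 and 8.16 in P0 replicate 2. Its 3 rightmost lost peaks overlapped H3K4me3 of height 30.7 and 18.6 at P0. The later H3K4me3 peaks began beyond the run. The longest lost peak of all, chr17:25652941-25658117 (5177 bp, H3K27Ac 7.38 and 12.7), lay on the same chromosome and had H3K27me3 in neither P0 library and in 3 of 4 later ones. The next in length, chr4:118742290-118747076 (4787 bp), had the same H3K27me3 counts and a Brg1 height of 13.8, and chr2:24979836-24984390 (4555 bp) had no H3K27me3 island in any library.

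**Figure D4:**
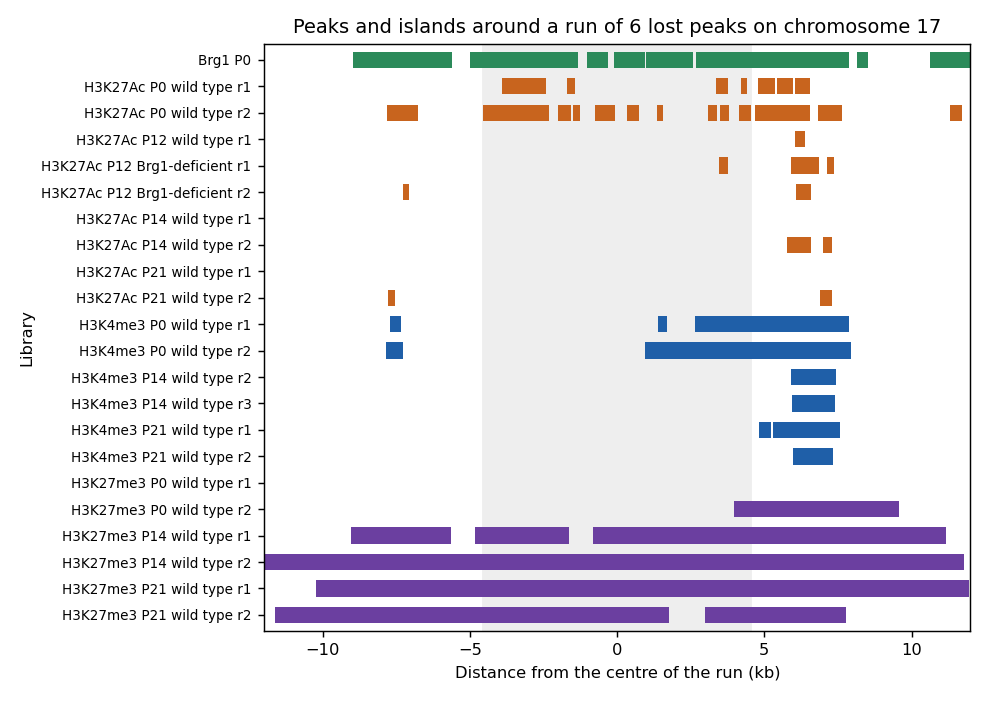
H3K27Ac, H3K4me3 and Brg1 peaks and H3K27me3 islands (boxes) in each library, against distance in kb from the centre of the run of 6 lost peaks on chromosome 17. Grey marks the run. H3K27Ac boxes lie in it at P0 and none at P14 and P21, where H3K27me3 boxes cover between 86.8% and 100% of it.

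The run of 6 at chr12:85872505-85888259 differed between the P12 libraries. A wild-type P14 replicate 2 H3K27Ac peak lay inside its span, between its lost peaks, and no peak of the other P14 and P21 lists did. In P0 replicate 2 its lost peaks had H3K27Ac heights between 4.12 and 10.9. In Brg1-deficient P12 replicate 2 all 6 had a peak, with heights between 5.97 and 11.0. In Brg1-deficient replicate 1 only 1 had a peak (2.34), and the wild-type P12 library had none. The 2 Brg1-deficient libraries thus disagreed on it, and 1 library carries the pattern.

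At P12, 2 days before the first stage used in the rule, most lost peaks were already absent. The wild-type P12 list held a peak at 83 of 1278 lost peaks (6.49%, 95% Wilson interval 5.27 to 7.98%), against 86.1% of partly kept and 99.9% of kept peaks. The Brg1-deficient lists held 197 (15.4%, 13.5 to 17.5%) in replicate 1 and 136 (10.6%, 9.07 to 12.5%) in replicate 2. Both Brg1-deficient values lay above the wild-type one. The wild-type list held 47404 peaks and the Brg1-deficient lists 40465 and 42887. With the strongest 40465 peaks of each list the counts were 57 (4.46%), 197 (15.4%) and 118 (9.23%). The wild type had 1 H3K27Ac library at P12, so its spread is unknown and the difference was not tested. The lost peaks were chosen for absence from wild-type lists alone, so the choice did not treat the genotypes alike. Over all 14741 P0 peaks in both replicates the wild-type share was also the lowest, at 85.5% against 89.4% and 88.3%.

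In all 3 P12 libraries the shares were higher at lost peaks with H3K4me3 than at those without. With H3K4me3, 8.12% had a P12 peak in wild type and 23.6% and 16.8% in the Brg1-deficient libraries. Without H3K4me3 the shares were 5.64%, 11.2% and 7.84%. Over all P0 peaks the shares in the same 3 libraries were 91.8%, 95.5% and 94.8% with H3K4me3 and 37.2%, 42.0% and 37.7% without. Partly kept peaks also had more in the Brg1-deficient lists, 93.0% and 91.4% against 86.1%. The lost peaks that were present at P12 were low, with median heights of 3.96 in wild type and 4.19 and 4.20 in the Brg1-deficient libraries. They were also nearer to later peaks, since 66 of the 299 found in any P12 library (22.1%) lay within 1000 bp of one, against 122 of the 979 found in none (12.5%).

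**Figure D5:**
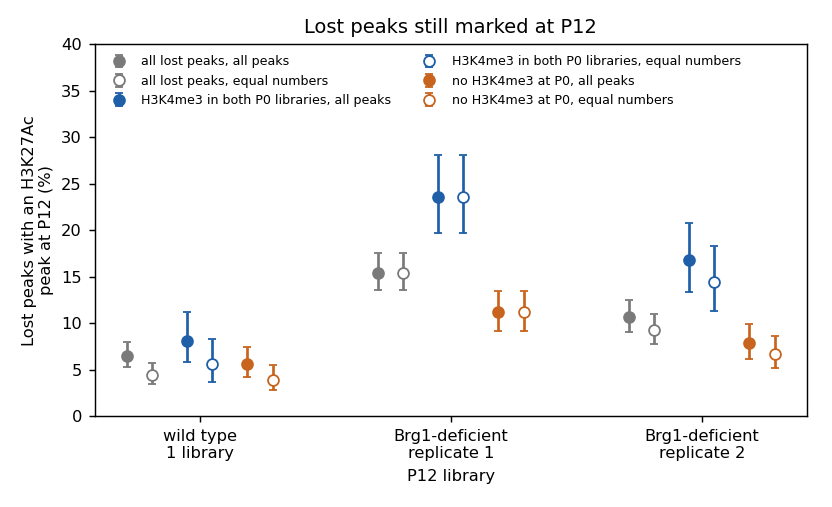
Share of lost peaks (%) with an H3K27Ac peak in each P12 library, for all lost peaks (grey) and those with (blue) and without (orange) H3K4me3 at P0. Filled points use every peak and open points the strongest 40465 of each list, with 95% Wilson intervals. All 3 shares are lowest in the wild-type library.

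Few lost peaks were shared by both Brg1-deficient libraries. Both held 67 (5.24%), of which 22 were also in wild type and 45 (3.52%) were not. That pattern was found at 3.32% of all P0 peaks in both replicates and at 5.33% of all P12 regions, so the lost peaks as a whole were near the share of P0 peaks. Marked lost peaks had it at 6.60% (95% Wilson interval 4.54 to 9.49%), against 3.19% of all marked P0 peaks. Unmarked lost peaks had it at 2.08% (1.31 to 3.31%), against 4.10% of all unmarked ones. Partly kept peaks had it at 6.51% and kept peaks at 0.074%, so the marked lost share was near that of partly kept peaks. Unmarked partly kept peaks had it at 8.35%. Wild type without either Brg1-deficient library was found at 33 lost peaks (2.58%), against 0.590% of all P0 peaks and 18.4% of all P12 regions. Among P0 peaks without H3K4me3 it was found at 3.32%, and at 21 of the 816 such lost peaks (2.57%).

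The 3 highest of the 45 were named by their height in P0 replicate 2. The peak chr2:152673740-152674348 had H3K27Ac of 6.08 and 11.5 at P0 and 3.81 and 6.64 in the Brg1-deficient P12 libraries, and its H3K4me3 was present throughout, at 52.0 and 73.5 at P0 and between 21.8 and 50.6 later. The peak chr13:42923995-42924706 had 4.28 and 11.3 at P0 and 5.37 and 3.91 in the Brg1-deficient libraries, and no Brg1 peak at P0. The peak chr5:120119529-120120726 had 8.13 and 10.7 at P0 and 3.64 and 4.37 in the Brg1-deficient libraries.

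This last region also had lower H3K4me3 at P14 and P21. Its H3K4me3 height was 38.7 and 37.4 at P0, 9.44 and 9.15 at P14 and 11.4 and 5.4 at P21. The log2 differences were -1.55 ± 0.20 (SE, limma adjusted p = 0.00985) at P14 and -1.82 ± 0.20 (adjusted p = 0.00614) at P21. H3K27me3 covered it in all 9 libraries, P0 included, and Brg1 bound it at P0 with a height of 13.8.

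H3K4me3 and H3K27me3 at lost peaks at P12 were closer to the later stages than to P0. H3K4me3 overlapped 24.8% of lost peaks in the wild-type and 20.7% in the Brg1-deficient P12 library. H3K27me3, measured with another antibody than at the other stages, overlapped 29.2% and 24.3% in wild type and 23.3% in the Brg1-deficient library. With 1 Brg1-deficient library for each mark, no difference between genotypes was tested.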

How the data were processed

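ChIP-Seq peak lists of 27 libraries were used as deposited, each called on 1 library and not on pooled replicates. Per the labels, the submitters' processing notes name the mm9 build, CASAVA, BWA 0.5.9-r26, Picard 1.65, SAMtools, R 2.14.0, MACS2 2.0.9, bedtools 2.17.0 and SICER 1.1. For H3K27Ac, H3K4me3 and Brg1 the authors deposited a fold enrichment, a −log10 p-value and q-value, a summit and a score that was not used. For H3K27me3 the authors deposited islands with 1 whole number, treated here as a score because its meaning is not stated. Input libraries and reads were not used here. Fold enrichments depend on the depth and enrichment of a library, and depth was unknown. Replicate numbers follow the sample titles, which for H3K4me3 at P14 are 2 and 3 where the lists have 1 and 2.

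Overlaps needed at least 1 bp, lost peaks up to 12500 bp apart formed a run, and both were computed in Python 3.11.15 (numpy 2.4.6, pandas 2.3.3). All 54 list comparisons checked against bedtools 2.31.1 gave equal counts, and the overlap rule was also tested on simulated data. Wilson intervals and exact permutation tests over libraries used scipy 1.17.1. H3K4me3 heights of merged regions with a peak in at least 2 of 6 wild-type libraries were tested between stages by limma 3.58.1 (R 4.3.3) on log2(height + pseudocount), the pseudocount being the 5th percentile of heights. P12 libraries were described without a test. Figures used matplotlib 3.10.9.

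The lost peaks, lists and tests were chosen with earlier results of these data known. Regions were named by rule, namely the 5 highest P0 replicate 2 peaks with and without H3K4me3, the 3 longest, the 5 longest runs, the 5 smallest adjusted p for lower H3K4me3 at P21 with ties ordered by the difference, and the 3 highest found at P12 in both Brg1-deficient libraries alone. The gene tables at hand were of another build than mm9, so no gene or marker list was used.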

Additional observations from a re-analysis of the deposited data

How the results depend on the processing

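Across 9 results, 74 alternatives left 51 values the same by the rule for each result, moved 23 and reversed 0. Counts were the same within a fixed fold, and shares within the spread between replicates or the Wilson interval. Differences in H3K4me3 and H3K27me3 share were the same if the sign held, and only these could be labelled reversed. The number of lost peaks was 1264 with 50% overlap of either peak, 1739 when counted from P0 replicate 1, 791 among the strongest 50% of P0 peaks and 2805 with equal numbers of later peaks, and leaving out 1 library gave 1278 to 9196, the highest without P0 replicate 1. The share with Brg1 was 83.1% with 50% overlap and 91.2% among the strongest 50%. The share with H3K4me3 was 31.5% to 35.4% with 1 P0 library left out, and 25.7% for lost peaks farther than 1000 bp from a later peak, an alternative chosen after seeing the data. The wild-type P12 share was 4.46% with equal numbers, and the share in both Brg1-deficient libraries became 10.6% to 15.4% when 1 of them was left out, by construction. The difference in H3K27me3 share stayed between 11.9 and 17.1 percentage points and that in H3K4me3 share between -14.9 and -9.61 under every alternative run. Lost-peak regions called by limma for H3K4me3 numbered 0 at both stages without scaling, and 46 at P14 and 101 at P21 with a peak in every library. They numbered 0 to 130 at P14 and 20 to 162 at P21 with 1 library left out. With the replicate number as a block they numbered 226 at P21, where 4798 of all 20508 regions were lower and 1392 higher. The cause of these shifts was not tested. The block could only be fitted for P0 and P21, whose same-numbered libraries had replicate differences correlated at r = 0.19 over 15065 regions. With 2 pairs and no label that ties the numbers to a litter or day, the pairing is not settled. Unknown read depth and lists of unequal length limit every absence of a peak. The two-sided permutation test used here, with 2 against 4 libraries, cannot give a p below 0.1333.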
